A study of Mus musculus with 6 samples.

Results

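Interferon-stimulated genes are the genes that cells switch on when interferon binds its receptors, and 37 of them were examined in whole mouse liver with and without Lmln, the gene of the metalloprotease invadolysin. The genes were taken by name from the table of counts, all 37 names were found among 55367, and all 37 had enough counts to be tested. The data were liver RNA sequencing of C57BL/6J mice in 2 groups: 3 libraries from mice with a homozygous disruption of Lmln (Lmln-/-, called Lmln-KO), from animals 46, 46 and 39 weeks old in replicates 1, 2 and 3, and 3 libraries from wild-type (WT) mice, all 46 weeks old. The labels name no treatment, do not give sex, and do not say how the allele was made or whether each library came from its own animal.

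Interferons alpha and beta (type I) bind the receptor Ifnar1/Ifnar2, and interferon gamma (type II) binds Ifngr1/Ifngr2. Kinases of the JAK family then phosphorylate STAT proteins. After type I interferon, a complex that holds Stat2 and Irf9 binds the interferon-stimulated response element (ISRE). The gamma-activated site (GAS) is the element of the response to interferon gamma. The target genes encode sensors of foreign nucleic acid, proteins that block viral RNA, and GTPases that attack the vacuoles of intracellular microbes. In liver they are read out of hepatocytes and of Kupffer, endothelial and infiltrating immune cells together.

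Promoter sequence was taken from RefSeq on GRCm38.p6, as 250 bases before to 50 bases after each annotated start, and 27 of the 37 genes had an entry (32 promoters). The ISRE was searched on both strands as GAAA, any 2 bases and GAAA again (TTTC at both ends on the opposite strand), and the GAS as TTCNNNGAA, which is its own reverse complement. An ISRE was found in 18 of the 32 promoters (56.2%), against 3.44% of all 32851 promoters in the table. A GAS was found in 8 (25.0%), against 8.30% of all promoters. By gene, 17 of 27 had an ISRE, 8 had a GAS, 5 had both and 7 had neither. In the 1 promoter where they overlapped, that of Bst2, the GAS shares bases with an ISRE. A match describes the letters in this window and is not evidence of binding.

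The stretches below run 5′ to 3′ on the gene's strand and end at the base before the annotated start, and capitals mark every ISRE and GAS. The GTPase genes Gbp3, Gbp7, Gbp2 and Igtp are shown because they varied most between libraries in their group, and Irgm1 because it carries the same element and varied little. Gbp3 (chr3:142559914-142560043, plus strand) has overlapping ISREs that begin at positions -45 and -39 from the start. Gbp7 (chr3:142530206-142530335, plus strand) has its ISRE at position -53 and 2 GAS matches upstream of it. In Igtp (chr11:58199426-58199555, plus strand) a GAS and an ISRE stand side by side. The other stretches are Gbp2 (chr3:142620533-142620662, plus strand) and Irgm1 (chr11:48871421-48871550, minus strand).
Gbp3: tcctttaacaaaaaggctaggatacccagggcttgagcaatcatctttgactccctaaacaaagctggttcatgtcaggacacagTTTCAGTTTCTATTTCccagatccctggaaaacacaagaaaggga
Gbp7: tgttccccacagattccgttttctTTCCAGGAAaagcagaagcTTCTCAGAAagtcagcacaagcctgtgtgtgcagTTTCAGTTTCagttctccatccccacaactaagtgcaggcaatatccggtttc
Gbp2: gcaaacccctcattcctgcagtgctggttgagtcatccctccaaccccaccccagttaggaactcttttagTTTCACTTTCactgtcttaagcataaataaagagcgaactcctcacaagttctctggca
Igtp: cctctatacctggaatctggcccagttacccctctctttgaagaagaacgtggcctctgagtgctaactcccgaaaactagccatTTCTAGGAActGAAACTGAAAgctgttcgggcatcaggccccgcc
Irgm1: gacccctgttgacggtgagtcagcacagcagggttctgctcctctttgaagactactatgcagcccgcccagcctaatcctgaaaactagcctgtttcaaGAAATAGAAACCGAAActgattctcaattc

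The IFIT genes and Isg15 are shown for the arrangement of their elements. Ifit1 (chr19:34640759-34640888, plus strand), Ifit3 (chr19:34583329-34583528, plus strand) and Ifit3b (chr19:34607757-34607956, plus strand) each carry 2 ISREs, beginning at positions -156 and -122 from the start in Ifit3 and at -188 and -154 in Ifit3b. Isg15 (chr4:156200819-156200948, minus strand) carries 3 overlapping ISREs.
Ifit1: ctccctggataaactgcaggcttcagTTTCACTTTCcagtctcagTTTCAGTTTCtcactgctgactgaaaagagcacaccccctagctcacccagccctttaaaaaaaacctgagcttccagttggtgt
Ifit3: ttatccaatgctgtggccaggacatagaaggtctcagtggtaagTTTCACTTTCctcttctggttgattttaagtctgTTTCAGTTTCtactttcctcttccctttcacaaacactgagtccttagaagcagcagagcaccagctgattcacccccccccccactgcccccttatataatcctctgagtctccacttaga
Ifit3b: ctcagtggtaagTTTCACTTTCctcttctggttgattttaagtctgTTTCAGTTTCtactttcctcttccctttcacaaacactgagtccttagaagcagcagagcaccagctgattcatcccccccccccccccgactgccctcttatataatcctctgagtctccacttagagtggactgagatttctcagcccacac
Isg15: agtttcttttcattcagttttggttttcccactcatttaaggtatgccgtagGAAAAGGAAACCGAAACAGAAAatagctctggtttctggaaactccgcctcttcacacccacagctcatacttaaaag

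Libraries held 20957895 to 22494696 counts in Lmln-KO and 17388360 to 18272045 counts in WT. Lmln measured 0.192, 0.567 and 0.0853 CPM (TMM-normalized counts-per-million) in Lmln-KO replicates 1, 2 and 3, against 4.69, 4.28 and 2.25 CPM in WT replicates 1, 2 and 3. The libraries also stood apart in sex-chromosome transcripts. Xist, the RNA of the inactive X chromosome, reached 1947 CPM in the third Lmln-KO library, against 1884 CPM in the second and 1878 CPM in the third WT library, and was under 1 CPM elsewhere. The summed level of 4 Y-linked genes was 216 and 235 CPM in the other Lmln-KO libraries, against 230 CPM in the first WT library. These are called below the Xist libraries and the Y libraries; 1 of the 3 Xist libraries is Lmln-KO and 1 of the 3 Y libraries is WT, and the Xist library of Lmln-KO is also the one from the 39-week-old animal. A fit with a term for this difference is called the sex-marker fit. Hepatocyte markers were high throughout, 7 of the 8 listed being in the table, with summed levels of 81575 to 91330 CPM in Lmln-KO, against 92633 to 103894 CPM in WT. Alb alone made up 45714.5 to 60833.8 CPM of that sum in Lmln-KO, against 62500.7 to 74329 CPM in WT. By gene, 5 of the 7 had a negative log2 fold change and 2 (Apob and Fgb) a positive one.

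Levels between genes are compared per length, as TPM (transcripts-per-million) over the summed exon length. Bst2, the membrane tether of budding viruses, had the highest mean, 152 TPM (lowest and highest library 135 and 174), followed by the GTPase gene Iigp1 with 140 TPM (101 and 177) and Ifi27, a small interferon-induced protein, with 117 TPM (87.3 and 140.0). Igtp came next with 38.5 TPM, and this was the 1 step, of 36 between neighbours in the order, at which the ranges over the 6 libraries did not overlap. At the low end stood Mx1 with 0.937 TPM and Ifi44 with 1.58 TPM. The median of the 37 means was 8.16 TPM, against 6.47 TPM over all 18703 tested genes, and 25 of the 37 lay above the median of tested genes.

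**Figure D1:**
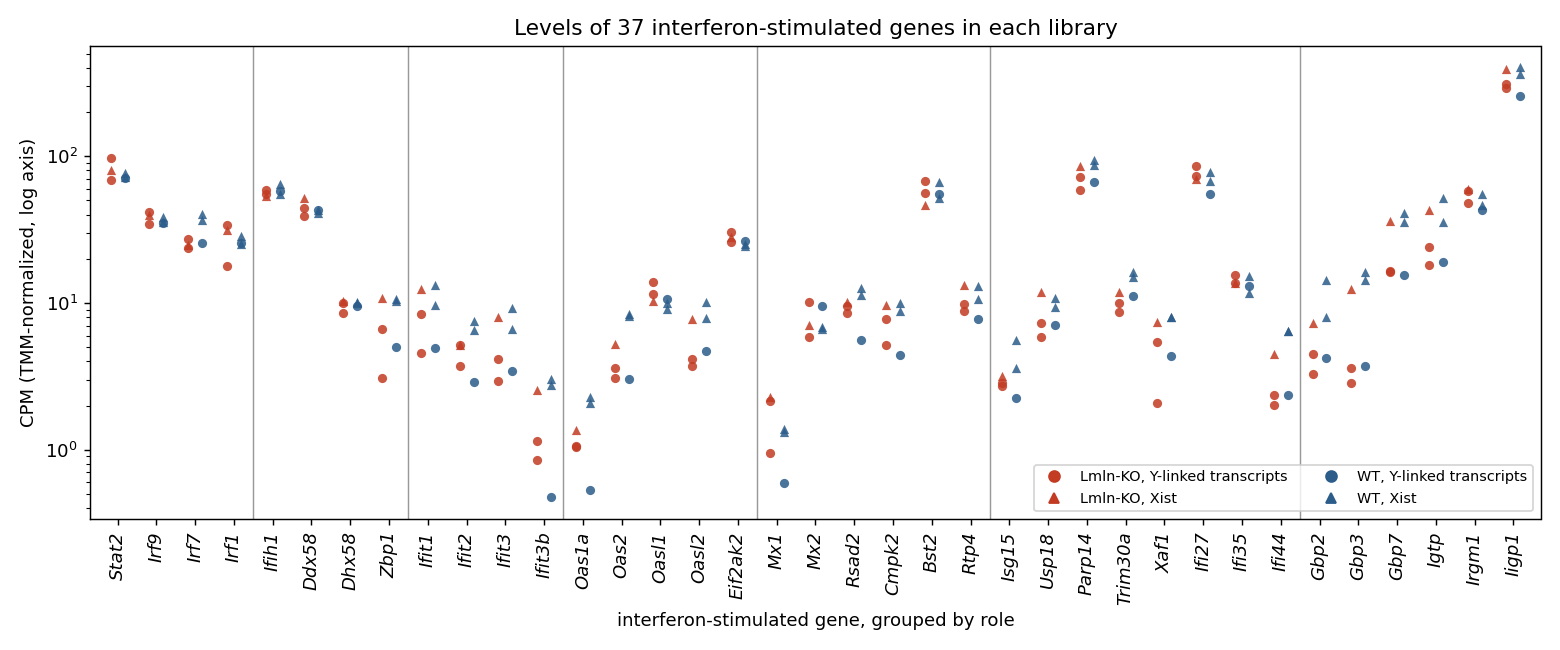
CPM on a log axis for each of the 37 genes, grouped by role; each point is 1 library, with Lmln-KO left of WT and triangles for the Xist libraries. The genotypes overlap for every gene, and for 23 genes all 3 triangles lie above all 3 circles.

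The genotypes were compared to find liver transcripts whose level depends on Lmln. None of the 37 interferon-stimulated genes passed. In edgeR's quasi-likelihood test by genotype 0 of 37 had a Benjamini-Hochberg adjusted p under 0.05 (the lowest was 0.933), and over all 18703 genes 0 were called (0%), with 871 at an unadjusted p under 0.05 (4.66%). At that unadjusted level 2 of the 37 were found, Irf7 and Trim30a, close to the share over all genes. With DESeq2 0 of 37 were called, where 24 of all genes were (0.128%). With limma-voom 0 of 37 and 0 genes (0%) were called. The standard errors of the log2 fold changes ran from 0.10 (Eif2ak2) to 0.817 (Gbp3), with a median of 0.279, so differences of the size of the larger standard errors could not be told from 0.

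In no gene did the Lmln-KO libraries lie all above or all below the WT libraries, where 4.61% of all tested genes lay all above and 5.73% all below. By genotype alone 26 of the 37 log2 fold changes were negative, with a median of -0.11, against 50.6% of all genes and a median of -0.0038. In the sex-marker fit 15 were negative and 22 positive, with a median of 0.05. At an unadjusted p under 0.05 that fit found 2 of the 37, Mx1 higher and Trim30a lower, against 4.34% of all genes. At an adjusted p under 0.05 it called 0 of the 37 in edgeR (1 gene in all, 0.00535%) and 0 in DESeq2 (31 genes in all, 0.166%). Its standard errors ran from 0.104 to 0.443, with a median of 0.168. The median difference of Lmln-KO minus WT in log2 CPM was 0.10 within the Y libraries and -0.0045 within the Xist libraries. Bulk RNA cannot tell fewer cells of a type from less RNA per cell.

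**Figure D2:**
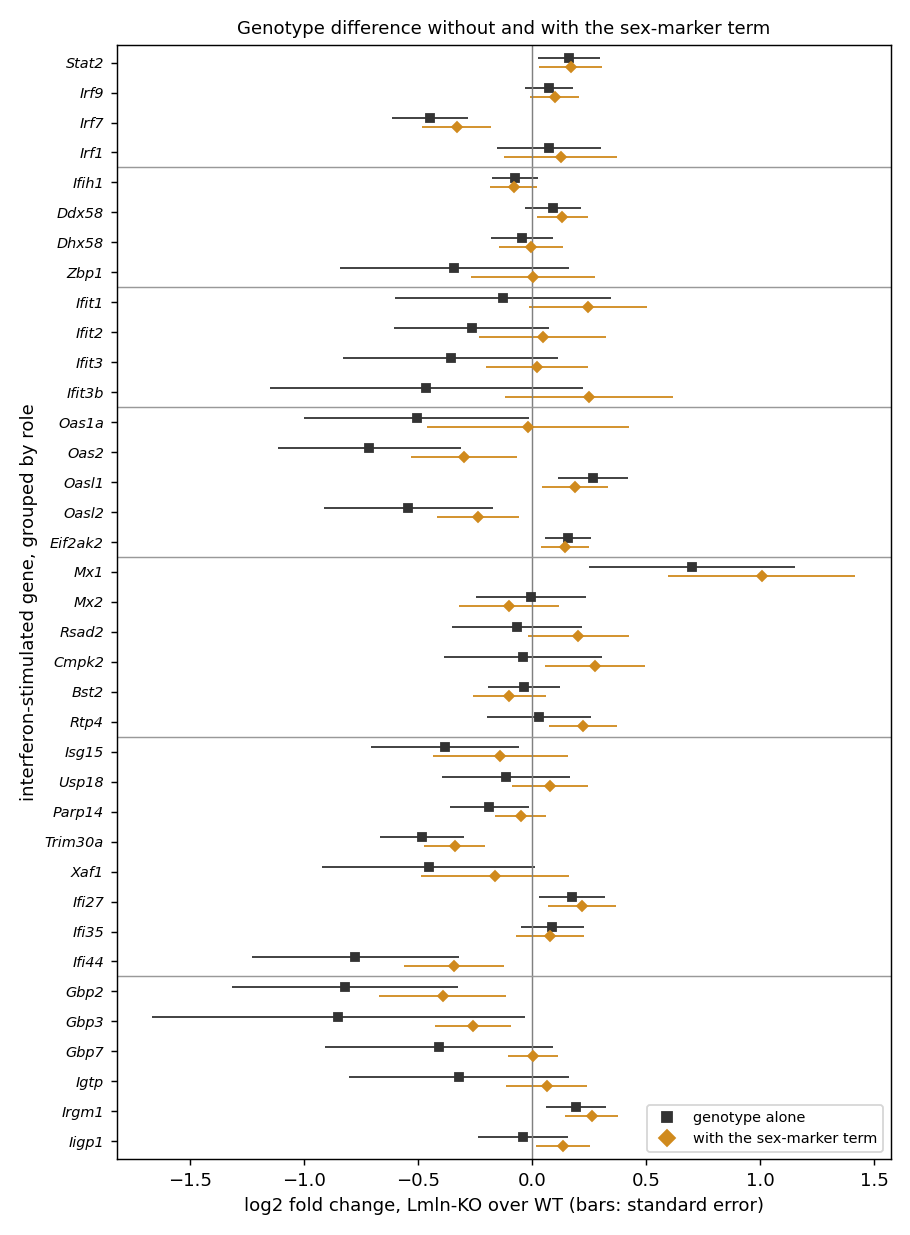
Log2 fold change of Lmln-KO over WT with its standard error for each of the 37 genes, from the fit by genotype alone (squares) and from the sex-marker fit (diamonds). Of the squares 26 lie below 0, and of the diamonds 15; none passed an adjusted p of 0.05 in either fit.

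The transcription factors of the response had a median SD of 0.251 in log2 CPM over the 6 libraries, close to the 0.262 of all tested genes and below the 0.385 of the 37 genes. Irf7, which amplifies the production of type I interferon (chromosome 7, 141262706 to 141266481), measured 27.1, 23.5 and 24.9 CPM in Lmln-KO replicates 1, 2 and 3, against 25.7, 36.9 and 40.4 CPM in WT replicates 1, 2 and 3. WT replicate 1 lay inside the Lmln-KO range and the other WT libraries above it. The log2 fold change was -0.45 (SE 0.168, unadjusted p 0.0286 in edgeR, adjusted p 0.933), and the difference was -0.03 within the Y libraries and -0.63 within the Xist libraries. Stat2 (chromosome 10, 128270559 to 128292849) measured 96.7, 69.0 and 81.0 CPM in Lmln-KO, against 71.0, 77.1 and 72.2 CPM in WT, with a log2 fold change of 0.16 (SE 0.134). Lmln-KO replicate 2 was the lowest and replicate 1 the highest of the 6, so the groups overlapped. Irf9, the DNA-binding partner of Stat2, and Irf1, the factor induced by interferon gamma, had log2 fold changes of 0.07 each, with standard errors of 0.106 and 0.228.

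The sensors of foreign nucleic acid had the smallest median SD of the 7 role groups, 0.121. Ifih1 (MDA5) measured 58.6, 55.6 and 53.8 CPM in Lmln-KO, against 57.5, 54.9 and 64.4 CPM in WT. Its log2 fold change was -0.07 (SE 0.101). Ddx58 (RIG-I) measured 44.7, 39.0 and 52.1 CPM in Lmln-KO, against 43.0, 41.1 and 43.2 CPM in WT, a log2 fold change of 0.09 (SE 0.121). For both genes the groups overlapped, and the highest library exceeded the lowest 1.20-fold and 1.34-fold. Dhx58 (LGP2), which regulates those sensors, spanned 1.21-fold. Zbp1, a sensor of Z-form nucleic acid that can start necroptosis, spanned 3.51-fold, with 3.07 CPM in Lmln-KO replicate 2 as its lowest value and 10.8 CPM in Lmln-KO replicate 3 as its highest.

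The IFIT genes, whose proteins bind viral RNA and which had the largest median SD of the role groups, 0.657, lie close together on chromosome 19 (34550694 to 34650009 from Ifit2 to Ifit1). Ifit2 measured 3.75, 5.15 and 5.2 CPM in Lmln-KO, against 2.91, 6.53 and 7.49 CPM in WT. Ifit3 measured 4.18, 2.93 and 7.97 CPM in Lmln-KO, against 3.44, 6.69 and 9.21 CPM in WT. For both genes WT replicates 2 and 3 and Lmln-KO replicate 3 were the highest libraries, though for Ifit2 Lmln-KO replicate 2 was close to replicate 3. The log2 fold changes by genotype were -0.26 (SE 0.339) and -0.36 (SE 0.471), and 0.05 and 0.02 in the sex-marker fit. Of the 36-base words in Ifit3 transcripts 58.5% also occur in Ifit3b, so the counts of these genes are uncertain with reads of 36 bases. Ifit3b had 8 to 60 counts per library and the widest span of the 37, 6.42-fold. Per length, Ifit1 and Ifit3 had close means of 8.16 and 7.99 TPM, with ranges that overlapped. For Ifit1 the log2 fold change was -0.13 (SE 0.473).

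The OAS enzymes make the oligoadenylate that activates RNase L. Oas2 measured 3.60, 3.07 and 5.24 CPM in Lmln-KO, against 3.03, 8.18 and 8.35 CPM in WT, a log2 fold change of -0.71 (SE 0.401). Its lowest library was WT replicate 1 and its highest WT replicates 2 and 3, so the Lmln-KO values lay within the WT range. The difference was 0.13 within the Y libraries and -0.65 within the Xist libraries. Oasl1, in mouse known to repress translation of Irf7, measured 13.9, 11.5 and 10.4 CPM in Lmln-KO, against 10.6, 9.95 and 9.10 CPM in WT, a log2 fold change of 0.27 (SE 0.153). It was the 1 gene of the 37 for which all Xist libraries lay below all Y libraries. Oasl2 showed a log2 fold change of -0.54 (SE 0.370), Oas1a one of -0.51 (SE 0.492) and Eif2ak2, the kinase PKR that halts translation, one of 0.16. Of the 36-base words of Oas1a 65.7% also occur in Oas1g, so its 9 to 43 counts per library are uncertain too.

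Among the other antiviral effectors, Mx1 had the largest positive log2 fold change, 0.70 (SE 0.450), or 1.01 (SE 0.411) in the sex-marker fit, where its unadjusted p was 0.0373 in edgeR and its adjusted p 0.987. It measured 2.16, 0.945 and 2.3 CPM in Lmln-KO, against 0.594, 1.39 and 1.32 CPM in WT. These rest on 10 to 54 counts per library, and Lmln-KO replicate 2 lay inside the WT range. Mx1 encodes a GTPase that blocks influenza viruses, and C57BL/6 mice are known to carry a disrupted copy. Rsad2 (viperin), which makes a chain-terminating nucleotide, measured 8.60, 9.59 and 10.2 CPM in Lmln-KO, against 5.58, 11.4 and 12.7 CPM in WT, a log2 fold change of -0.06 (SE 0.285). All 3 Lmln-KO libraries lay between WT replicate 1 and WT replicates 2 and 3. Its neighbour on chromosome 12, Cmpk2, a mitochondrial nucleotide kinase, showed a log2 fold change of -0.04 (SE 0.346), Mx2 one of -0.0033 (SE 0.240), Bst2 one of -0.03 (SE 0.158) and Rtp4 one of 0.03 (SE 0.230).

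Isg15 is the ubiquitin-like modifier of the response and Usp18 the protease that removes it and restrains the type I receptor. Isg15 averaged 2.92 ± 0.242 CPM in the Lmln-KO group, against 3.81 ± 1.68 CPM in the WT group (SD, n = 3 each). Usp18 averaged 8.40 ± 3.15 CPM in the Lmln-KO group, against 9.09 ± 1.83 CPM in the WT group (SD, n = 3 each). For both genes the groups overlapped. Trim30a, a ubiquitin ligase of the TRIM family, measured 9.99, 8.69 and 11.8 CPM in Lmln-KO, against 11.2, 16.3 and 15 CPM in WT. Lmln-KO replicate 3 lay above WT replicate 1, so the groups overlapped. The log2 fold change was -0.48 (SE 0.183, unadjusted p 0.0298 in edgeR, adjusted p 0.933), and the differences were -0.27 within the Y libraries and -0.40 within the Xist libraries. In all 21 alternative settings its sign was negative, between -0.62 and -0.26, and the lowest adjusted p was 0.529. Ifi44 measured 2.02, 2.36 and 4.48 CPM in Lmln-KO, against 2.38, 6.42 and 6.39 CPM in WT, a log2 fold change of -0.77 (SE 0.453), or -0.34 (SE 0.218) in the sex-marker fit. Parp14, an ADP-ribosyltransferase, Xaf1, Ifi27 and Ifi35 had log2 fold changes of -0.19, -0.45, 0.18 and 0.09.

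The GTPases had a median SD of 0.650 in log2 CPM over the 6 libraries. Gbp2, a guanylate-binding protein that attacks pathogen vacuoles (chromosome 3, 142620602 to 142638008), measured 4.52, 3.26 and 7.29 CPM in Lmln-KO, against 4.22, 8.08 and 14.3 CPM in WT. Its log2 fold change was -0.82 (SE 0.497), or -0.39 (SE 0.278) in the sex-marker fit, and WT replicate 1 lay inside the Lmln-KO range. Irgm1, a regulator of the immunity-related GTPases, measured 57.7, 47.8 and 59.4 CPM in Lmln-KO, against 43.0, 55.0 and 46.2 CPM in WT, a log2 fold change of 0.19 (SE 0.132), or 0.26 (SE 0.117) in the sex-marker fit, with an unadjusted p of 0.0527 in edgeR. Iigp1 (chromosome 18), another of these GTPases, averaged 332 ± 53.1 CPM in the Lmln-KO group, against 341 ± 76.6 CPM in the WT group (SD, n = 3 each).

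Gbp3, Gbp7 and Igtp were chosen for a full account after their values were seen. Gbp3 measured 2.83, 3.59 and 12.5 CPM in Lmln-KO, against 3.74, 14.2 and 16.3 CPM in WT. Gbp7 measured 16.4, 16.4 and 36.3 CPM in Lmln-KO, against 15.4, 35.4 and 40.8 CPM in WT. Igtp measured 24.2, 18.3 and 42.9 CPM in Lmln-KO, against 18.9, 51.8 and 35.8 CPM in WT. In each of them the 3 Xist libraries, 1 from Lmln-KO and 2 from WT, stood well above the 3 Y libraries, and the difference between the sets exceeded that between genotypes. For Gbp3 the Xist libraries exceeded the Y libraries by 1.94 in log2 CPM within Lmln-KO and by 2.00 within WT, while Lmln-KO minus WT was -0.22 within the Y libraries and -0.28 within the Xist libraries. For Gbp7 the same pairs were 1.14 and 1.29, and 0.09 and -0.07. Gbp3 (5.05% of its 36-base words occur in Gbp7), Gbp7 (10.7% in Gm43802) and Igtp (14.7% in Irgm2) share some sequence with their neighbours. Rtp4, of the other effectors, shares 13.9% of its exon bases with Gm45338 on the same strand. Antisense genes overlap Irf1 (20.0% of its exon bases) and Ifi35 (16.8%). Without strand in the counting, reads in those shared bases cannot be told apart.

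**Figure D3:**
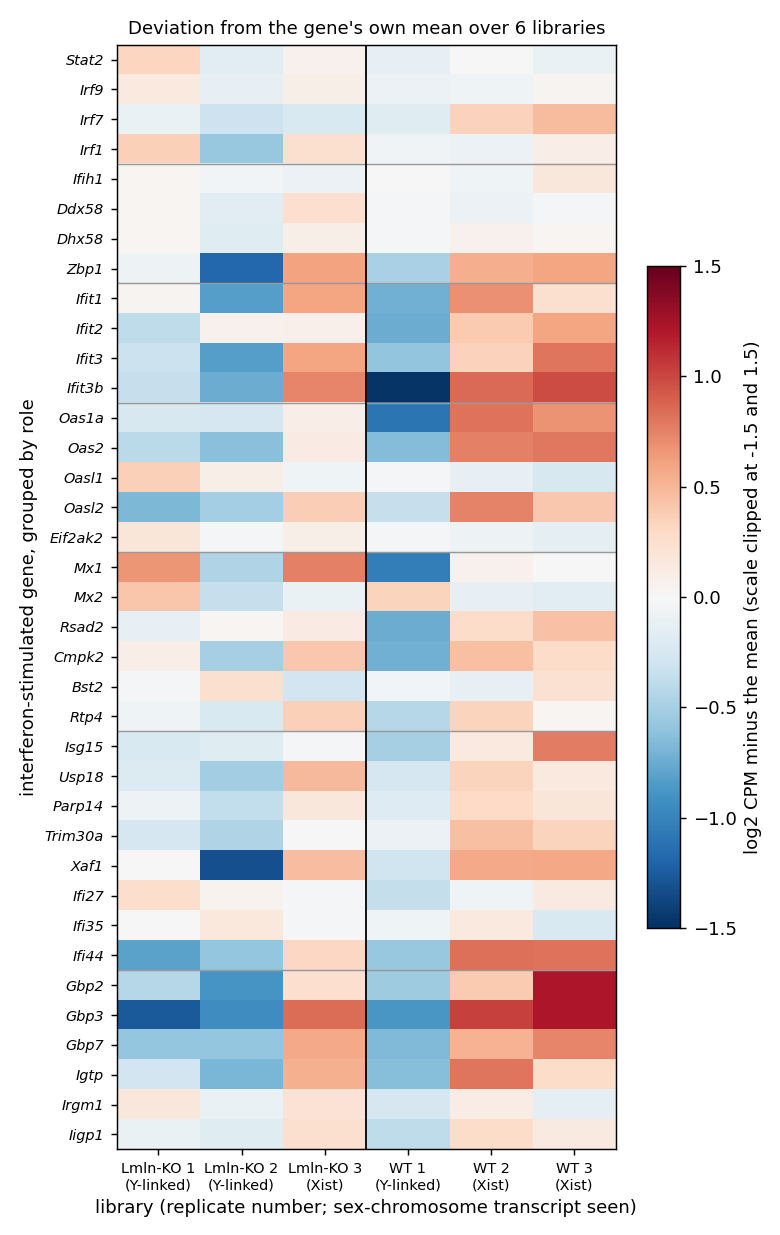
Log2 CPM of each gene minus its own mean over the 6 libraries, with Lmln-KO left of WT and the sex-chromosome transcript of each library named below it. The columns of Lmln-KO replicate 3 and WT replicates 2 and 3 are mostly above the mean, and Gbp3 and Ifit3b have the widest swings, with SDs of 1.14 and 1.01, while Ifih1 and Dhx58 are pale, with SDs of 0.0934 and 0.0992.

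Over the 37 genes, all Xist libraries lay above all Y libraries in 23, against 13.0% of all tested genes, and all below in 1, against 13.3%. Those 23 were all 4 IFIT genes, 5 of 6 GTPases (all but Irgm1), 6 of 8 in the group of Isg15 and its modifiers, 3 of 5 in the OAS and PKR group, 3 of 6 other effectors, 2 of 4 sensors (Zbp1 and Dhx58) and 0 of 4 transcription factors. For Dhx58 the margin was slight, with 9.96 CPM in the lowest Xist library, against 9.94 CPM in the highest Y library. The difference was positive within both genotypes for 27 of 37 genes (73.0%), against 32.3% of all tested genes, and its median was 0.35 in log2 CPM within Lmln-KO and 0.60 within WT, against 0.0081 and -0.0071 over all tested genes. The sets are not groups of the study, the age of Lmln-KO replicate 3 cannot be told apart from its Xist status within Lmln-KO, and no test was made between them. Without Lmln-KO replicate 3 the count was 24, against 19.4% of all tested genes. The Xist set then held WT libraries only, so the sets also differed in genotype. Among genes with a promoter entry, 11 of the 16 that lay above in the Xist libraries had an ISRE and 6 of the other 11 had one.

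**Figure D4:**
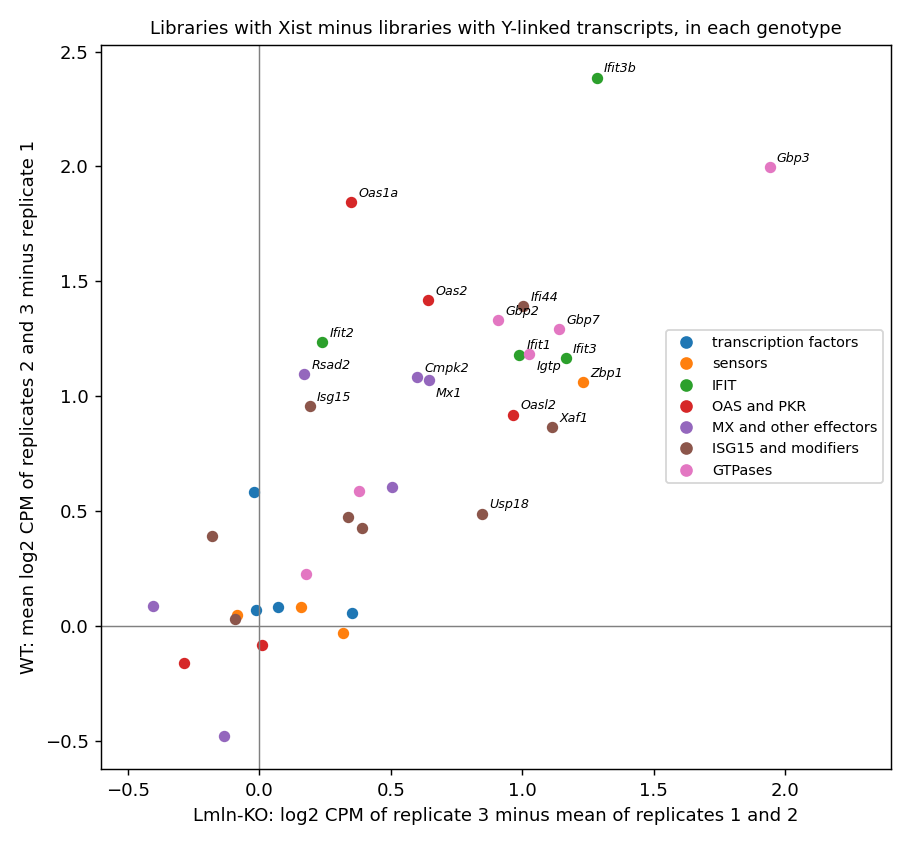
Xist minus Y libraries in log2 CPM for each of the 37 genes, within Lmln-KO (replicate 3 minus the mean of 1 and 2, horizontal) and within WT (mean of 2 and 3 minus replicate 1, vertical). There are 27 genes in the upper right corner, with Gbp3 at 1.94 and 2.00 and Ifit3b at 1.28 and 2.39.

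Markers of other cells are given beside this pattern. Summed endothelial markers (8 genes, all with counts in every library) were 470, 495 and 586 CPM in the Lmln-KO libraries, against 527, 529 and 546 CPM in the WT libraries, so the sum was higher in every Xist library, by little between WT replicates 2 and 1. By gene, 3 of the 8 (Stab1, Clec4g and Oit3) lay above in all Xist libraries, against 13.0% of all tested genes. Within WT, Stab2, Kdr and Cdh5 were lower in the Xist libraries. The part of these cells in the result was not tested. Summed B and plasma cell markers (8 genes) were 38.6, 20.8 and 31.0 CPM in the Lmln-KO libraries, against 38.8, 233 and 402 CPM in the WT libraries. They were highest in WT replicates 2 and 3, and their part in the result was not tested. Kupffer cell and macrophage markers (12 genes) summed to 328 to 378 CPM in Lmln-KO, against 371 to 468 CPM in WT, and were lowest in Lmln-KO replicate 3. By genotype all 12 had a negative log2 fold change, as did all 6 tested B and plasma cell markers, against 50.6% of all tested genes. None of these markers was called in edgeR, where 0% of all genes were, and the part of these cells in the genotype differences was not tested. Markers of plasmacytoid dendritic cells, known as strong producers of type I interferon, summed to 57.2 to 60.4 CPM in Lmln-KO, against 57.5 to 63.8 CPM in WT, with Pacsin1, Klk1 and Cox6a2 at 0 in at least 1 library. Tcf4 alone made up 50.1 to 51.9 CPM of that sum in Lmln-KO, against 47.6 to 54.4 CPM in WT, while Siglech measured 0.142 to 0.256 CPM in Lmln-KO, against 0.107 to 1.44 CPM in WT, and Ccr9 2.98 to 4.35 CPM in Lmln-KO, against 5.36 to 5.83 CPM in WT. The sum therefore says little of this cell type. T and NK cell markers summed to 3.03 to 4.35 CPM in Lmln-KO, against 3.98 to 9.44 CPM in WT, with 6 of 12 at 0 in some library, and neutrophil markers to 1.65 to 2.90 CPM in Lmln-KO, against 2.94 to 3.74 CPM in WT, with 5 of 8 at 0 in some.

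Apart from Ifnk, each class of interferon had 2 counts or fewer in any library. The 16 genes of interferons alpha, beta and epsilon and Ifnab together had 0 counts in every Lmln-KO library, and 2, 1 and 0 counts in WT replicates 1, 2 and 3. Ifng, made by T and NK cells, had 1 count in Lmln-KO replicate 3 and 2 counts in WT replicate 2, and Ifnl2 and Ifnl3 had none in any library. If counts are independent, a count of 0 allows up to 3 counts, counting error only. In CPM, 3 counts are 0.128 to 0.144 in the Lmln-KO libraries, against 0.160 to 0.178 in the WT libraries. The limit does not apply where a class had counts. Those were the type I genes in WT replicates 1 and 2, and Ifng in Lmln-KO replicate 3 and WT replicate 2. Sequence shared between the interferon genes was not examined. Paired reads were counted without a paired-end option, so both reads of a pair may be counted, and the limit would then be higher. Ifnk, a type I interferon not among those 16, was the 1 ligand tested, with 37 to 77 counts per library, at 2.79 ± 0.484 CPM in the Lmln-KO group, against 2.66 ± 0.737 CPM in the WT group (SD, n = 3 each).

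Further genes of the pathway were likewise not called. Of the 5 receptor chains tested 5 had a negative log2 fold change, led by Ifngr1 (-0.29, SE 0.203), Ifngr2 (-0.33, SE 0.243) and Il10rb, a chain shared with the lambda receptor (-0.22, SE 0.222). The kinase Tyk2 showed a log2 fold change of -0.14 (SE 0.101) and the kinase Jak1 one of -0.12 (SE 0.120). Of 8 negative regulators tested, Socs3, an inhibitor of JAK kinases, measured 21.5, 16.3 and 6.22 CPM in Lmln-KO, against 10.7, 7.33 and 5.70 CPM in WT (log2 fold change 0.89, SE 0.487). Its high values were thus in the Y libraries, the reverse of the GTPases. Samhd1 and Ptpn6 had log2 fold changes of -0.24 and -0.19. Of 12 genes that lead to interferon production, Mavs, the adaptor of the RNA sensors, had one of 0.17 (SE 0.103), Sting1 one of -0.59 (SE 0.397) and Tlr9 one of -0.99 (SE 0.603).

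A list of 80 further interferon-response genes, 74 of them tested, was examined too. None was called by genotype in edgeR, DESeq2 or limma-voom, 58 of 74 log2 fold changes were negative (48 in the sex-marker fit), and the median was -0.18 (-0.05 in that fit). At an unadjusted p under 0.05 in edgeR 4 were lower and 1 higher, against 3.14% and 1.52% of all genes. Epsti1 measured 1.83, 1.42 and 1.32 CPM in Lmln-KO, against 2.38, 2.94 and 2.99 CPM in WT. Its groups did not overlap, and its log2 fold change was -0.86 (SE 0.251), or -0.85 in the sex-marker fit, with an edgeR adjusted p of 0.933. Oas1b, a relative of Oas1a that binds RNA without making oligoadenylate, measured 1.54, 1.65 and 1.15 CPM in Lmln-KO, against 2.49, 1.98 and 2.59 CPM in WT, again without overlap (log2 fold change -0.70, SE 0.266). Ifi203, a DNA-binding member of the p200 family, showed a log2 fold change of -0.52 (SE 0.193) and groups that did not overlap, though Lmln-KO replicate 3 and WT replicate 1 both rounded to 13.5 CPM. Over the 74 genes 6 lay all below and 3 all above in Lmln-KO, against 5.73% and 4.61% of all tested genes. All Xist libraries lay above all Y libraries in 26 of the 74, against 13.0% of all tested genes.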

How the data were processed

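Per the labels' protocols, liver RNA was depleted of ribosomal RNA, prepared with a directional kit and sequenced as paired reads of 36 bases. The deposited values are whole-number counts per gene name, made per the file headers with featureCounts 2.0.1 over exons of Ensembl release 102 (GRCm38). That command line gives no paired-end or strand option. Both reads of a pair may therefore be counted, so low counts can rest on fewer RNA fragments than counts. Reads in bases shared by antisense genes cannot be told apart by strand. The submitters' processing notes name Subread 2.0.2 and edgeR 3.36.0. Name and version of the aligner were not given in the sources used here. Of its rows 0 named no gene.

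Counts were tested with edgeR 4.0.16 in R 4.3.3: filterByExpr (minimum count 10, leaving 18703 genes), TMM, then genotype fitted by robust quasi-likelihood, with p-values adjusted after Benjamini and Hochberg (threshold 0.05). A standard error was taken as the size of the log2 fold change over the root of its F statistic. Differences within library sets use log2 CPM with a prior count of 2. DESeq2 1.42.0 and limma 3.58.1 (voom) were alternatives, with the settings listed in the closing section. The sex-marker term codes whether Xist exceeded the summed Y-linked genes. All libraries differed beyond sampling noise (the lowest chi-square of a pair was 12.2 per degree of freedom). P-values measure the spread between these libraries, which may be technical.

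The genes, lists and tests were chosen with earlier results of these data known. Values for every library are given for the 2 genes of each role with the smallest p, and up to 3 genes of each further list are named. Steps were tested on simulated counts. Of the listed hepatocyte markers, Tf matched no gene name. The 10 genes without a promoter entry were Ifi27, Zbp1, Oas2, Mx1, Iigp1, Parp14, Usp18, Rtp4, Mx2 and Dhx58.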

Additional observations from a re-analysis of the deposited data

How the results depend on the processing

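Across 21 alternatives 0 of the 37 genes were called, in every one, and the lowest adjusted p was 0.395 (Irf7, without WT replicate 1). Their median log2 fold change ran from -0.32 to -0.01 when 1 library was left out of the fit by genotype, and from -0.03 to 0.11 when 1 was left out of the sex-marker fit. It was 0.05 in the sex-marker fit and 0.07 in DESeq2 with that term. The sign differed from that by genotype alone for 11 of 37 genes in the sex-marker fit and 13 in DESeq2 with it, for 2 to 7 when 1 library was left out of the fit by genotype, for 9 to 14 when 1 was left out of the sex-marker fit, and for at most 1 under other scalings, filters and tools.

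Over all genes, where 0 were called by genotype in edgeR, 3 were called with no filter on low counts, 24 with DESeq2, 1 in the sex-marker fit, 31 with DESeq2 and that term, 0 to 3 with 1 library left out, and 0 to 4 with 1 left out of the sex-marker fit. The cause was not tested. Replicate numbers were not taken to pair the libraries: same-numbered libraries deviated from their group means with correlations of 0.465, -0.311 and 0.405. In replicates 1 and 3 both groups had the same sex-chromosome transcript, and in replicate 2 they did not. These correlations therefore cannot tell pairing from the difference between Xist and Y libraries. With the replicate number as a block 1 gene was called, 0 of the 37, and their median was -0.11.

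The count of 23 genes higher in all Xist libraries (13.0% of all tested genes) was 22 with RLE size factors (12.7%), 23 with upper-quartile scaling (15.5%) and 23 with total counts alone (17.5%), and ran from 23 to 26 without 1 library (17.0% to 19.4%). These alternatives were chosen after seeing the data. Depth limits Mx1, Oas1a and Ifit3b, which had 60 counts or fewer in each library.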
